A study of Mus musculus with 12 samples.

Results

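Among 50416 cells of mouse tumours that could be assigned to a single tumour, 170 carried transcripts of the lectin Cd209a together with those of MHC class II, and they are called Cd209a+ cells here. A cell was counted when it had at least 1 unique molecular identifier (UMI, a counted transcript molecule) of Cd209a and at least 3 of H2-Ab1. It also had to have 0 UMIs of Ccr7, of Xcr1 and Clec9a, of C1qa, C1qb and C1qc, and of Cd3e and Cd3g, which mark mature dendritic cells, the other conventional dendritic cell subset, macrophages and T cells. These genes chose the cells, so their levels are a description and are not tested. Each cell had at least 300 detected genes, at most 15% mitochondrial counts, and a leading hashtag (the antibody-borne oligonucleotide that marks the tumour of origin) of 10 counts or more that was at least 2 times as high as the next one.

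The tumours grew from 5 lines, in a series on melanoma rejection. The authors' sample table marks 2 of them as rejected (SCC31, SCC40) and the others as non-rejected (SCC32, SCC35, SCC37). They were taken at days 6, 10 and 16, and for the non-rejected lines also at day 20. All were dissociated, stained with hashtag antibodies and sorted for live cells. The strain, sex, age and treatment of the mice, and what the 5 lines carry, are not stated in the labels used here. Each line had its own library with tumours 1 and 2 of each day, and a mix library held a tumour 3 for some groups (SCC35 at days 6, 10 and 20, and each rejected line at days 6 and 10). Line and library therefore cannot be told apart outside the mix library. P-values measure the spread between tumours.

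Conventional dendritic cells take up antigen and present its peptides to T cells. The Xcr1 Clec9a subset is known for presentation on MHC class I to CD8 T cells, and the second subset, which carries Sirpa and Clec10a and in the mouse often Cd209a, for presentation on MHC class II to CD4 T cells. Flt3, the receptor of a growth factor that dendritic cells need, and Zbtb46, a transcription factor of the conventional lineage, mark either subset, whereas Cd209a is also known from monocyte-derived cells in inflamed tissue. Interferons change these cells through transcription factors that bind the interferon-stimulated response element (ISRE) or the gamma-activated site (GAS) in front of the genes they induce.

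The 170 cells came from 33 of 43 tumours, and 3 tumours had at least 10 of them, 13 at least 5 and 24 at least 3. At day 6 there were 95 Cd209a+ cells of 13611 tumour cells, at day 10 there were 29 of 14611, at day 16 there were 31 of 12555 and at day 20 there were 15 of 9639. By line they numbered 62 in SCC35, 39 in SCC40, 29 in SCC37, 22 in SCC32 and 18 in SCC31. The cells held 729935 UMIs in all, with a median of 3276.5 per cell and a range of 630 to 31995. None of 7227 day 0 cells, which have no mouse in the table, met the rule, and a count of 0 there allows a share of up to 0.0415% (3 counts of the total). Of the Cd209a+ cells, 69 had 1 Cd209a UMI, 38 had 2 and 63 had 3 or more. At the other threshold, 4 had exactly 3 H2-Ab1 UMIs, and 3 further cells met every criterion but had 2. The Cd209a criterion removed most cells, since 2813 met all the others.

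The libraries differed in size. The 6 libraries had 2366 to 20690 barcodes and 5691826 to 112724631 gene UMIs, and the SCC31 library was the smallest on either measure. Both day 16 tumours of SCC31 had 0 assigned cells. Among the 57643 assigned cells, day 0 included, 1845 barcodes of 16 bases occur in more than 1 library. Of the Cd209a+ cells 14 carry such a barcode, and no barcode was a Cd209a+ cell in 2 libraries. All 18 Cd209a+ cells of SCC31 came from 1 tumour, day 6 tumour 3 of the mix library. In cells without Ptprc or Xist UMIs and with under 3 of H2-Ab1, the genes Uty, Kdm5d, Ddx3y and Eif2s3y of the Y chromosome summed to 106 CPM (UMIs scaled to a common total per set of cells) in SCC31 at day 0 (475 counts). They summed to 4.68 CPM (6 counts, 95% Poisson interval 1.72 to 10.2) in cells with SCC31 hashtags in the mix library, and to 23.2 CPM (5 counts, 7.53 to 54.1) in SCC31 tumours of their own library. The mix library value pools day 6 tumour 3 and day 10 tumour 3, so the label of either is in doubt. The day 10 tumour had 0 Cd209a+ cells and enters only the tests of shares. The day 6 tumour is called the tumour labelled SCC31 here, and the tests on Cd209a+ cells that include it are also given without it. Poisson and binomial intervals here are exact, at 95%, and cover counting error only.

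The label was checked against marker genes in gates set on the same tumour cells. Flt3 stood at 19.2 CPM over all Cd209a+ cells (10.5 to 32.2) and Zbtb46 at 20.6 CPM (11.5 to 33.9). In 2015 cells gated on Ly6c2, a monocyte marker, Flt3 stood at 3.61 CPM and Zbtb46 at 1.2 CPM, and in 4688 cells gated on C1q, a macrophage marker, at 0.36 and 0.10 CPM. Pooled over all days, the intervals of the Cd209a+ cells lie above those of the monocyte and macrophage gates for either gene. At day 6 alone (95 cells) Flt3 stood at 5.85 CPM (2 counts, 0.708 to 21.1), an interval that holds the 3.61 CPM of the Ly6c2 gate. Zbtb46 stood there at 14.6 CPM (5 counts, 4.75 to 34.1), and all day 6 counts of both genes came from SCC35. After day 6 (75 cells) Flt3 stood at 30.9 CPM (12 counts, 15.98 to 54.03) and Zbtb46 at 25.8 CPM (10 counts, 12.4 to 47.4). For either gene the later interval overlaps that of day 6. Of the later Flt3 counts, 8 came from day 16 and 0 from day 20. Among cells thinned to 1000 UMIs, a Zbtb46 UMI was seen in 2.20% at day 6 and 1.33% later. For Flt3 these shares were 0% and 2.67%. In 116 cells gated on Xcr1 or Clec9a, Flt3 stood at 97.6 CPM (73.3 to 127), above the Cd209a+ cells, and Zbtb46 at 30.7 CPM (17.9 to 49.2), an interval that overlaps theirs. A Flt3 UMI was seen in 7.06% of Cd209a+ cells (median 3276.5 UMIs) and in 29.3% of the Xcr1 Clec9a gate (median 3830.5 UMIs), against 0.149% of the C1q gate (median 2914.5 UMIs). With every cell thinned to 1000 UMIs these shares were 1.2% and 10.3%.

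**Figure D1:**
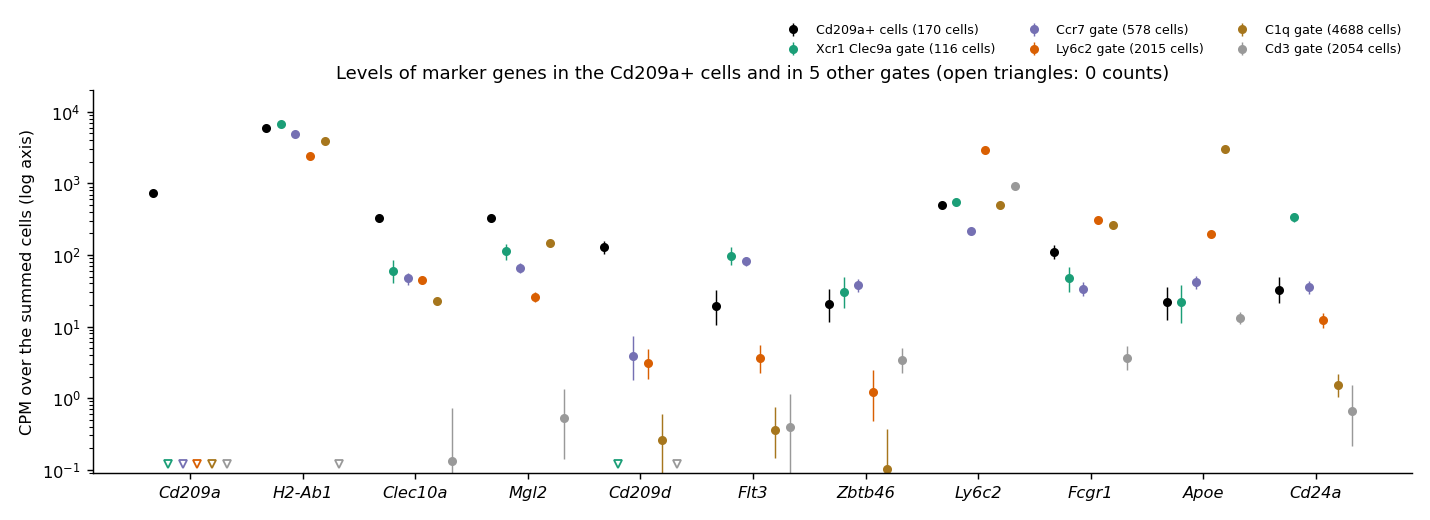
Level of 11 marker genes in the Cd209a+ cells and in 5 other gates, as CPM over the summed cells of each gate on a log axis, with 95% Poisson intervals. Open triangles stand for 0 counts. Clec10a, Mgl2 and Cd209d are highest in the Cd209a+ cells, while Apoe is lower there than in the Ly6c2 and C1q gates.

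The Cd209a UMIs were not spread evenly over the tumour cells. A Cd209a UMI was found in 1 of 2454 cells with at least 2 Cd3 UMIs and no H2-Ab1 (0.0407%, median 2280 UMIs) and in 3 of 31506 cells without Ptprc and H2-Ab1 UMIs (0.00952%, median 5071 UMIs). Among cells with at least 3 C1q UMIs the share was 0.378% (20 of 5285, median 3137 UMIs). Among cells that met every other criterion of the rule it was 5.70% (170 of 2983, median 2160 UMIs).

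Other lectins and antigen presentation genes were high in the cells beside Cd209a. The cells were chosen on their transcripts, so the following levels describe them and are not tested. Clec10a, a galactose-binding lectin, stood at 325 CPM (55.9% of cells with a UMI) against 44.4 CPM in the Ly6c2 gate and 59.7 CPM in the Xcr1 Clec9a gate. Mgl2, its close relative, stood at 332 CPM against 26.0 and 112 CPM. The neighbours of Cd209a in the lectin family, Cd209d, Cd209e and Cd209c, stood at 127, 89.0 and 45.2 CPM against 0.590, 0.148 and 0.162 CPM in all other tumour cells. Reads of such near-identical paralogs can be split between them by the counting, so their levels are uncertain. Further leading genes with at least 30 counts were Kmo and Kynu, enzymes of tryptophan breakdown (47.5-fold and 32.8-fold over all other tumour cells), Cdh1, which encodes E-cadherin (43.5-fold), Kit, a receptor tyrosine kinase (23.0-fold), and the chemokine Ccl17 (20.1-fold). H2-DMb2 and H2-Oa, whose products edit the peptides held by MHC class II, were 30.8-fold and 23.2-fold higher, and Napsa, an aspartic protease, 22.3-fold. The closest gates shared this trait, since the 13 genes of MHC class II presentation summed to 34071 CPM in the Cd209a+ cells, 38031 CPM in the Xcr1 Clec9a gate and 32954 CPM in the Ccr7 gate, and to 14425 CPM in the Ly6c2 gate. Irf4, a transcription factor of the second dendritic subset, stood at 49.3 CPM against 10.8 CPM in the Xcr1 Clec9a gate and 9.28 CPM in the Ly6c2 gate. Klrd1, better known from NK cells, was also among the leading genes, at 226 CPM and in 40% of the cells. The other tumour cells behind the fold values include 31506 with neither Ptprc nor H2-Ab1 UMIs. Genes common to dendritic or myeloid cells therefore rank high as well. Kmo, Kynu, Cdh1, Kit, Ccl17, Napsa and Klrd1 are thus not shown to be particular to the Cd209a+ cells.

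Monocyte transcripts were present too. Ly6c2 stood at 501 CPM in the Cd209a+ cells, 2893 CPM in the Ly6c2 gate, 559 CPM in the Xcr1 Clec9a gate, 507 CPM in the C1q gate and 932 CPM in cells gated on Cd3. Pooled over all days, the level of Ly6c2 in the Cd209a+ cells was thus near that of 2 gates that are not monocytes. It was not even over time. Over tumours with at least 3 Cd209a+ cells, Ly6c2 had a median of 1073 CPM at day 6 (88.4 to 2200) and 239 CPM later (0 to 2108). Fcgr1, an Fc receptor of monocytes and macrophages, stood at 111 CPM against 305 CPM in the Ly6c2 gate and 47.0 CPM in the Xcr1 Clec9a gate. Apoe, a lipid carrier gene of macrophages, stood at 21.9 CPM, against 199 CPM in the Ly6c2 gate and 3045 CPM in the C1q gate. Of the 10 monocyte markers all had counts, with a summed level of 2274 CPM against 7409 CPM in the Ly6c2 gate. Of the 6 B cell markers 5 were at 0, of the 6 neutrophil markers 5, and of the 8 melanocytic markers 7. The 7 macrophage markers summed to 221 CPM, against 5068 CPM in the C1q gate, the 8 markers of the Xcr1 subset to 710 CPM, against 2950 CPM in the Xcr1 Clec9a gate, and the 9 of mature dendritic cells to 334 CPM. Plasmacytoid dendritic cell markers summed to 199 CPM with Siglech, Klk1 and Ly6d at 0, endothelial markers to 65.8 CPM, NK cell markers to 37 CPM and T cell markers to 11 CPM. The 8 markers of fibroblasts or tumour stroma summed to 1399 CPM, and none was at 0.

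The Cd209a+ cells were not of 1 kind in these markers. A UMI of Ly6c2 or Fcgr1 was found in 97 of the 170 cells, one of Flt3 or Zbtb46 in 26, of either pair in 12 and of neither in 59. Cells with a Ly6c2 or Fcgr1 UMI had 1598 CPM of Isg15, an interferon-induced ubiquitin-like protein, against 501 CPM in the 73 cells with neither. Irf8 stood at 254 against 67.2 CPM and Gbp2, an interferon-induced GTPase, at 346 against 153 CPM. Cd209d and Mgl2 went the other way, with 42.3 against 232 CPM and 246 against 436 CPM, while Clec10a (350 and 293 CPM) and Zbtb46 (19.9 and 21.4 CPM) were close. At day 6, 62.1% of the cells had a Ly6c2 or Fcgr1 UMI and 7.37% one of Flt3 or Zbtb46. After day 6 these shares were 50.7% and 25.3%, when the median cell had 3861 UMIs, compared with 2700 at day 6.

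The question of how the Cd209a+ cells changed as the tumours aged was put to sums of their counts per tumour. After day 6, a group of interferon-induced genes was lower than at day 6 in these cells. No gene of MHC class II passed the test, but the rule admitted only cells with at least 3 H2-Ab1 UMIs. Of 944 genes tested, 16 fell and 1 rose. The pooled comparison of all later days with day 6 was made over 11 tumours of day 6 and 13 later tumours with at least 3 Cd209a+ cells, with the line as covariate. It, and its minimum of 3 cells, were chosen after trial fits at 5, 3 and 1 cells per tumour had been seen, and at 5 cells it gives 0 genes. In edgeR's quasi-likelihood test 1.80% of genes passed a Benjamini-Hochberg adjusted p of 0.05, with 1.69% lower and 0.106% higher.

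Isg15 shows the pattern in each tumour. At day 6 it stood at 1478 CPM in the tumour labelled SCC31, 2606 and 2988 in SCC32, 972, 876 and 358 in SCC35, 2799 and 3107 in SCC37, and 5543, 1180 and 894 in SCC40. At day 10 it stood at 0 and 558 CPM in SCC32, 809 in SCC35, 1827 in SCC37, and 666 and 171 in SCC40. At day 16 it stood at 2439 CPM in SCC32, 346 and 1350 in SCC37, and 390 and 463 in SCC40, and at day 20 at 47.7 in SCC35 and 480 in SCC37. The periods overlap, with SCC35 low at day 6 and 1 SCC32 tumour high at day 16. The median went from 1478 to 480 CPM, a log2 change of -1.76 ± 0.41 (SE, adjusted p = 0.0219, 24 tumours). Summed over cells, it went from 2836 to 826 CPM in SCC32, from 828 to 584 in SCC35, from 3032 to 961 in SCC37 and from 2887 to 421 in SCC40.

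Promoters of genes that fell are shown here because interferon-activated factors bind there, as 300 bases of the gene's strand from RefSeq on GRCm38.p6 (mm10), 250 before to 50 after the start. Capitals mark matches of the ISRE letters, GAAA, any 2 bases and GAAA (on the other strand TTTC, any 2 bases and TTTC), in Isg15 (chr4:156200769-156201068, minus strand, 3 matches that overlap), Ifit3 (chr19:34583279-34583578, plus strand, 2 matches) and Gbp2 (chr3:142620413-142620712, plus strand, 1 match). In Irf8 (chr8:120736108-120736407, plus strand) they mark 2 matches of the GAS letters TTCNNNGAA, which read the same on either strand.
Isg15: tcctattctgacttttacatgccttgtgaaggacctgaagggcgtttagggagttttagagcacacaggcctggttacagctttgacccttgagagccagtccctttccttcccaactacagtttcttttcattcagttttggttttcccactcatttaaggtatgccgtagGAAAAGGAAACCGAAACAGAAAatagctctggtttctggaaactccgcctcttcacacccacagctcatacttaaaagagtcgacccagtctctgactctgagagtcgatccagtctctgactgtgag
Ifit3: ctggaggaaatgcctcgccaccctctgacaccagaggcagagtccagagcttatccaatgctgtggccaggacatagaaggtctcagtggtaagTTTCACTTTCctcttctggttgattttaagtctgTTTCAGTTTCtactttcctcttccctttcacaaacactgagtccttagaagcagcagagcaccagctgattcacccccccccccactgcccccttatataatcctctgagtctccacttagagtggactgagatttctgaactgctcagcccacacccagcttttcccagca
Gbp2: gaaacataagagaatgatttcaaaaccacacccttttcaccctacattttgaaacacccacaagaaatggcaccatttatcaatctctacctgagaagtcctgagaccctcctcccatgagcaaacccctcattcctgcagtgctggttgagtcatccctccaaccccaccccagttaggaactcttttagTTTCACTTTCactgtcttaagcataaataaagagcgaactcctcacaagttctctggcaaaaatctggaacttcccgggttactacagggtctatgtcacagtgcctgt
Irf8: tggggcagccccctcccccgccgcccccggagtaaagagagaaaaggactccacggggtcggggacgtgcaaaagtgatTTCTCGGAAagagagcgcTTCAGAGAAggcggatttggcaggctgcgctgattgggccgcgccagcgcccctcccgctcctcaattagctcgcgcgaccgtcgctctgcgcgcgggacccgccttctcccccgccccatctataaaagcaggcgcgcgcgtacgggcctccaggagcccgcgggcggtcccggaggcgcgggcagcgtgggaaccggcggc
Of the 16 genes that fell, 15 had a RefSeq promoter in the table, and Zbp1 had none. The ISRE letters occurred in 6 of the 15 (40%): Gbp2, Ifi207, Ifit3, Isg15, Slamf8 and Mndal. They occurred in 3.49% of the first promoters of 27025 genes and in 7.87% of those of 750 genes tested here. The GAS letters occurred in 4 of the 15, Serpina3g, Samhd1, Irf8 and Isg20, against 8.47% of the 27025 and 7.60% of the 750. A match is a string of letters and not a shown binding site.

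The named genes that fell most were Il1rn, Ifit3, Slamf8, Irf8 and Gbp2. Gbp2 had a median of 619 CPM at day 6 (lowest 88.4, highest 1733) and of 102 CPM later (0 to 274). The 3 SCC35 tumours of day 6, at 88.4, 139 and 134 CPM, lay within the range of the later tumours, and the other 8 day 6 tumours had 259 CPM or more. The later SCC35 tumours had 108 CPM at day 10 and 238 CPM at day 20, so Gbp2 showed no fall in that line. The log2 change of Gbp2 over all lines was -2.21 ± 0.46 (adjusted p = 0.0219). Irf8, a transcription factor of dendritic cells and monocytes that interferon gamma also induces, had a median of 338 CPM at day 6 (0 to 1066) and of 50.9 CPM later (0 to 232), with a log2 change of -2.32 ± 0.55 (adjusted p = 0.0220). At day 6 it was at 0 in 1 SCC37 tumour and at 58.9 and 121 CPM in 2 of SCC35, so its ranges overlap. Ifit3, an interferon-induced RNA-binding protein, had 54 counts at day 6 and 8 later, with a log2 change of -2.87 ± 0.67 (adjusted p = 0.0219). It was at 0 in 1 of 11 tumours of day 6 and in 8 of 13 later ones. Il1rn, the secreted antagonist of the interleukin 1 receptor, had a median of 112 CPM at day 6 (0 to 550) and was at 0 in 10 of 13 later tumours, with a log2 change of -2.99 ± 0.80 (adjusted p = 0.0466). Slamf8, a surface receptor of myeloid cells, had a median of 172 CPM at day 6 (34.7 to 533) and was at 0 in 8 later tumours (highest 187), with a log2 change of -2.37 ± 0.61 (adjusted p = 0.0353).

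Of the remaining genes that fell, Zbp1, Psmb10 and Psme2 are named as members of the lists, and the others after their values were seen. Serpina3g, an intracellular protease inhibitor, had the smallest p, with a median of 374 CPM at day 6 (130 to 1303) and 108 CPM later (0 to 231), a log2 change of -2.09 ± 0.41 (adjusted p = 0.0181). Zbp1, a sensor of nucleic acids, fell by 1.57 on the log2 scale, and Samhd1, a nucleotide hydrolase that restricts viruses, by 1.19. The nucleic acid sensor family members Ifi207, Ifi203 and Mndal had log2 changes of -1.89, -1.28 and -1.32, and the exonuclease Isg20 of -2.18. The 3 family members are near-identical neighbours, so their counts can be split between them. Atp6v0c, a subunit of the proton pump that acidifies endosomes, fell by 1.01, with a range of 685 to 1896 CPM at day 6 and 206 to 1157 CPM later.

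**Figure D2:**
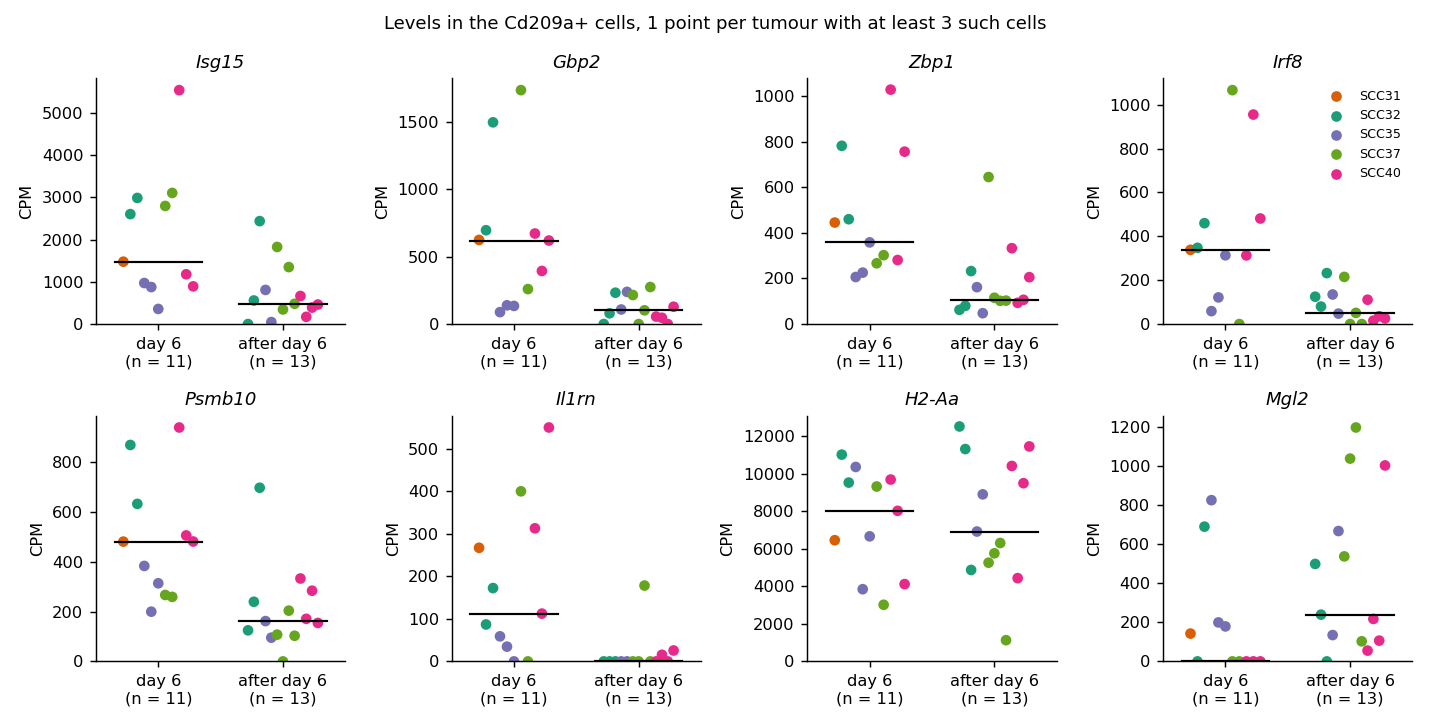
Level of 8 genes in the Cd209a+ cells as CPM, 1 point per tumour with at least 3 such cells, coloured by line, with the median of each period as a line. Isg15, Gbp2, Zbp1, Irf8, Psmb10 and Il1rn have lower medians after day 6 with overlapping ranges. H2-Aa and Mgl2 did not pass the test.

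Of the 22 interferon-stimulated genes listed, 18 had enough counts to be tested. Of these 4 fell (Isg15, Zbp1, Gbp2 and Ifit3), 0 rose and all 18 had a log2 change below 0, with a median of -1.55. Over all 944 genes 443 lay below 0, with a median of 0.04 and 1.69% called lower. The transcription factor Irf7 had a log2 change of -1.30 (adjusted p = 0.0578), and Cxcl9 and Cxcl10, chemokines that attract T cells, of -0.93 (adjusted p = 0.398) and -0.73 (adjusted p = 0.533), all short of the threshold. The summed level of the list per tumour had a median of 9100 CPM at day 6 (1925 to 15548) and 2633 CPM later (958 to 7434). Depth differed beside it, with a median of 2700 UMIs per cell at day 6 and 3861 later.

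Genes of MHC class I presentation had smaller values. Of 11 tested, 2 fell and 0 rose, and all 11 had a log2 change below 0, with a median of -0.78. Psmb10, a subunit of the immunoproteasome, had a median of 481 CPM at day 6 (200 to 939) and 162 CPM later (0 to 697), with a log2 change of -1.24 ± 0.29 (adjusted p = 0.0219). Psme2, a subunit of the proteasome activator, fell by 0.93 on the log2 scale (adjusted p = 0.0231). Tap1, the peptide transporter, had a log2 change of -0.92 (adjusted p = 0.180), B2m, the light chain of MHC class I, of -0.38 (adjusted p = 0.251), and H2-K1, a heavy chain, of -0.0037 (adjusted p = 0.998).

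None of the 9 MHC class II genes tested passed, and their median log2 change was 0.01. Cells of every day needed at least 3 H2-Ab1 UMIs, so cells with little MHC class II RNA could not enter. A fall of these genes could therefore be missed here. H2-Aa had a median of 8032 CPM at day 6 (3021 to 11031) and 6929 CPM later (1131 to 12533), with a log2 change of 0.06 ± 0.25 (adjusted p = 0.946). Cd74, the invariant chain that guides MHC class II to endosomes, had a log2 change of 0.03 ± 0.22 (adjusted p = 0.983).

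Among the remaining lists, Irf8 was the member of 7 dendritic cell transcription factors that passed and Il1rn that of 4 cytokines. No gene passed among 5 costimulatory and inhibitory ligands (median log2 change -0.87), 9 chemokines (-0.90), 2 chemokine receptors (0.12), 2 cell cycle genes (0.83), 8 genes of glycolysis and hypoxia (0.13), 7 lipid-associated genes (-0.14) and 11 genes of dissociation stress (0.08). The maturation marker Cd83 had a log2 change of -0.94 (adjusted p = 0.180), the costimulatory ligand Cd86 of -1.28 (adjusted p = 0.248) and the inflammatory cytokine Il1b of 0.80 (adjusted p = 0.280). The 5 C-type lectins had a positive median of 1.37, and none passed. Clec4n, which encodes the fungal receptor Dectin-2, had a log2 change of 2.40 ± 0.70 (adjusted p = 0.0578), Cd209d of 2.17 ± 0.80 (adjusted p = 0.179) and Mgl2 of 1.37 ± 0.72 (adjusted p = 0.367). Mgl2 was at 0 in 6 of 11 tumours of day 6 and in 1 of 13 later ones.

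**Figure D3:**
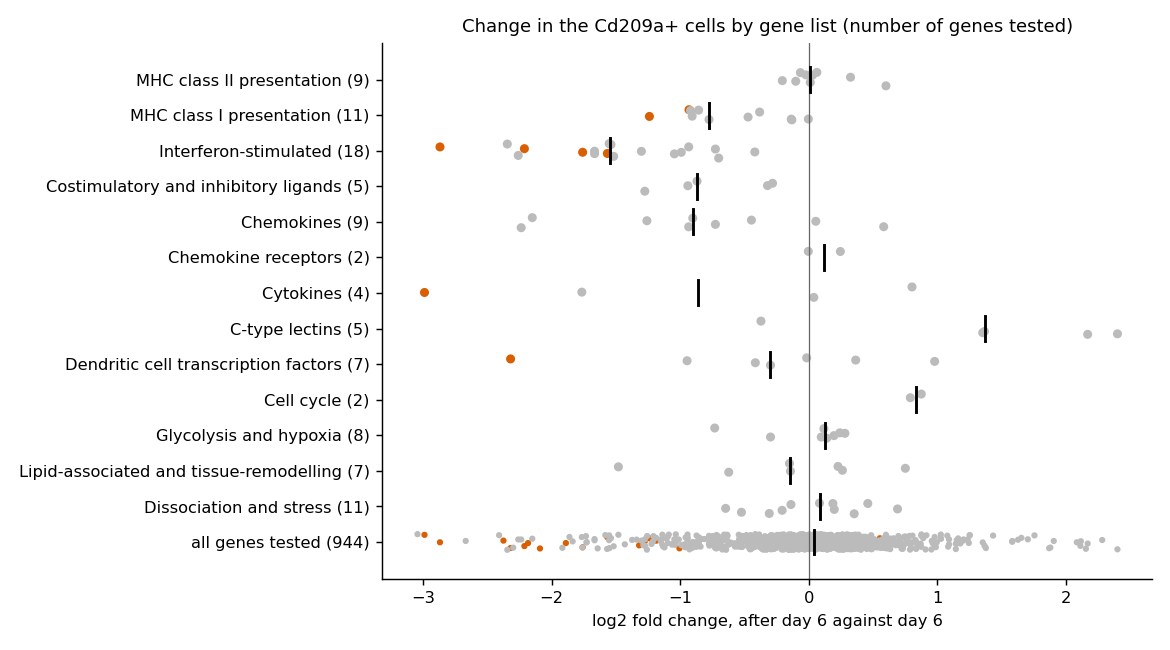
Log2 change after day 6 in the Cd209a+ cells for each tested gene of 13 lists and for all 944 genes tested (below). Points in orange passed an adjusted p of 0.05 and vertical bars are medians. The interferon-stimulated list has its median at -1.55, MHC class II at 0.01 and all genes at 0.04.

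The count of 17 genes depended on single tumours. It was 11 without SCC32 day 6 tumour 1, day 10 tumour 1 or day 10 tumour 2, 26 without SCC32 day 16 tumour 2, 27 without SCC35 day 6 tumour 2, and 8 without SCC37 day 6 tumour 1 or SCC40 day 6 tumour 1. It was 32 without SCC37 day 6 tumour 2, 28 without SCC37 day 10 tumour 2, 7 without SCC40 day 16 tumour 2, and 21 of 473 (18 lower, 3 higher) without the tumour labelled SCC31. Without the mix library, a fit in which 427 genes could be tested, it was 3. Serpina3g, Gbp2 and Atp6v0c passed in all 24 such fits, Zbp1 and Samhd1 in 23 and Isg15 in 22, while Mndal passed in 10 of 24 and Il1rn in 9 of 22. Monocyte transcripts had a lower median later too: the 10 monocyte markers had a summed median of 3775 CPM per tumour at day 6 (998 to 6179) and 2496 CPM later (206 to 5602). Of these markers, Ly6c2 had a median of 1073 CPM at day 6 and 239 CPM later, and Fcgr1 of 206 and 55.5 CPM. Over the summed cells, Cd14 and Ccr2 of the same list went the other way, from 81.9 to 175 CPM and from 123 to 147 CPM. These levels are not adjusted for the line. In the fit with the line as covariate, 4 of the 10 monocyte markers were tested and 0 passed. Their median log2 change was -0.09, with 2 below 0. When cells with a Ly6c2 or Fcgr1 UMI were left out and every tumour with a cell was used, an alternative chosen after seeing the data, 6 of 243 genes passed, all lower, with Isg15 at -2.37. Among stromal genes, the collagen gene Col1a1 stood at 450 CPM over the day 6 cells, with 136 of 154 counts from SCC35 day 6 tumour 2, and at 18.0 CPM over the later ones, and Sparc, a matrix protein gene, at 895 and 315 CPM. The median over tumours went the other way, as the 8 stromal markers summed per tumour to a median of 86.9 CPM at day 6 (0 to 5700) and 231 CPM later (0 to 1440). The part of these transcripts in the result was not tested.

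The same comparison in Ly6c2-gated monocytes of the same 24 tumours placed these changes beside those of another myeloid cell. There 55 genes fell and 13 rose of 5054 tested. Serpina3g changed by -1.2 ± 0.22 (adjusted p = 0.00276), Gbp2 by -1.15 ± 0.25 (adjusted p = 0.0143) and Samhd1 by -0.77 ± 0.18 (adjusted p = 0.0197), so these 3 fell in the monocytes as well. Isg15 had a log2 change of -0.55 ± 0.25 there (adjusted p = 0.323), Ifit3 of -0.29 ± 0.32 (adjusted p = 0.764) and Irf8 of -0.21 ± 0.26 (adjusted p = 0.807). The interferon-stimulated genes tested in the Cd209a+ cells all lay below 0 in the monocytes too, apart from Ifit1 (0.0063). Among them Ifi47 also passed in the monocytes (-0.84 ± 0.20, adjusted p = 0.0230), and Ifit2 stood at -1.13 ± 0.32 (adjusted p = 0.0764). The direction of the list was thus shared by both gates. The difference between the gates was tested with a gate by period term and the tumour as block, an analysis added after seeing the data. Of 2832 genes 1 passed (0.0353%), Col1a1, which is a stromal gene and no longer passed without the tumour labelled SCC31, and none of the interferon-stimulated genes did. For Irf8 the change in Cd209a+ cells minus that in monocytes was -2.06 ± 0.52 (adjusted p = 0.150), for Ifit3 -2.38 ± 0.70 (adjusted p = 0.382) and for Isg15 -1.13 ± 0.40 (adjusted p = 0.700). A larger fall in the Cd209a+ cells was therefore not shown for any of these genes.

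**Figure D4:**
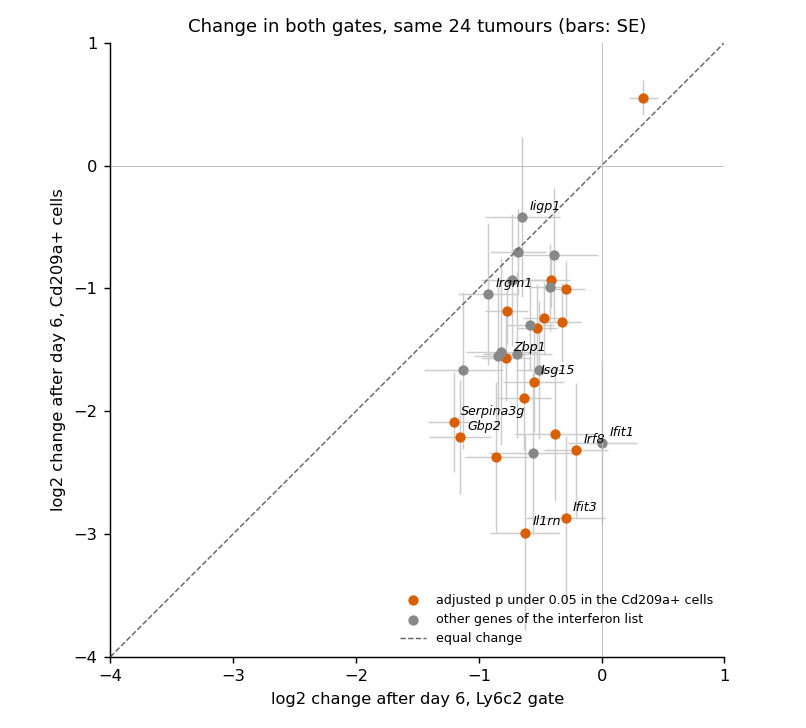
Log2 change after day 6 in the Cd209a+ cells (vertical) against that in the Ly6c2 gate of the same 24 tumours (horizontal), with SE bars. Orange points passed in the Cd209a+ cells, grey points are other genes of the interferon list, and the dashed line marks equal change. Most points lie below the line, and no interferon-stimulated gene passed the test of the difference.

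Single days gave no gene. With the line as covariate and at least 5 Cd209a+ cells per tumour, 13 tumours entered, and edgeR called 0 of 1131 genes (0%) at day 10, day 16 or day 20 against day 6. At an unadjusted p under 0.05 there were 88, 47 and 51 genes, and DESeq2 called 0, 1 and 0. On simulated counts the day 10 fit found 11% of log2 changes of 1 and 51% of those of 2. Changes at single days could therefore be missed. Without SCC35 day 6 tumour 2, 17 genes passed at day 10 and 3 at day 20. Without the tumour labelled SCC31 the count was 0 at each day.

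Between lines, few genes differed beyond the spread between tumours. AY036118 was the 1 of 1131 genes that passed (0.0884%, adjusted p = 0.0379, 13 tumours, edgeR F test with the day as covariate, 50 genes at an unadjusted p under 0.05). The levels given for lines here pool all Cd209a+ cells of a line, also those of tumours outside the fit. AY036118 stood at 3377 CPM over the Cd209a+ cells of SCC37 (29 cells, 8 tumours) and 261 CPM over those of SCC40 (39 cells, 8 tumours). In SCC37 it was 522 CPM at day 6 (16 counts) and 4291 CPM later (411 counts), so at day 6 SCC35 (1918 CPM) and SCC32 (1383 CPM) lay above it. SCC40 was lower than the mean of the other lines by -2.90 on the log2 scale (adjusted p = 0.0490). The genes next in p, none of which passed, were Ccl4 (adjusted p = 0.0934), Ifitm1 (0.155), Lars2 (0.215), Ccl5 (0.280), Ly6c1 (0.853), and Samhd1, Gm26917, Gbp2 and Cd209e (each 0.994). Ifitm1, an interferon-induced membrane protein, stood at 1763 CPM in the tumour labelled SCC31 and 1770 CPM in SCC35, against 563, 407 and 111 CPM in SCC32, SCC40 and SCC37. Its contrast of SCC35 with the mean of the others was 4.63 (adjusted p = 0.0585). Of the 13 tumours 5 were of SCC35, 5 of SCC40 and 1 of each other line, and line coincides with library. The SCC37 tumour was day 16 tumour 2, so no day 6 cells of SCC37 entered the fit. AY036118 no longer passed when any 1 of 6 tumours was left out: day 6 tumour 1, day 6 tumour 3 or day 20 tumour 2 of SCC35, day 6 tumour 1 or day 6 tumour 3 of SCC40, and the SCC37 tumour. Without the tumour labelled SCC31 the count was 1 of 913.

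The share of Cd209a+ cells among a tumour's assigned cells fell from day 6 to the last day. The mean over lines of the difference was -0.373 percentage points (two-sided stratified exact permutation test over 24 tumours, p = 0.0136, adjusted p = 0.0407 over 3 tests of shares). It was lower in 4 of 5 lines. In SCC35 it was 1.53%, 1.39% and 0.457% at day 6 and 0.0921%, 0.365% and 0.0739% at day 20, means of 1.13% ± 0.585 and 0.177% ± 0.163 (SD, n = 3 each), groups that do not overlap (exact permutation p = 0.10, the smallest this size allows). In SCC37 it was 0.484% and 0.435% at day 6 and 0.203% and 0.188% at day 20, and in SCC32 it was 0.218% and 0.353% at day 6 and 0.192% and 0% at day 20, again without overlap. With 2 tumours per day no exact test can go below 0.333 there.

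In the rejected line SCC40 the share was 0.580%, 0.354% and 0.380% at day 6 and 0.287% and 0.653% at day 16, so that it ended 0.0322 points higher, within the spread of its tumours (exact permutation p = 0.80). The p-values of the single lines, adjusted over 5, lay between 0.50 and 1. In SCC31, the other rejected line, it was 0%, 0% and 1.48% at day 6 and 0% in each of 2 tumours at day 10, where a tumour with 3 cells was left out. One of these day 10 tumours was tumour 3 of the mix library, whose label is in doubt as well. The tumours of SCC31 in its own library held 87, 76 and 169 cells, and a count of 0 in them allows up to 3.45%, 3.95% and 1.78% (3 counts of the total), with exact binomial upper bounds of 4.15%, 4.74% and 2.16%. The overall difference was -0.274 points without the tumour labelled SCC31 of day 6 (exact permutation p = 0.00889). It no longer passed without either SCC31 tumour of day 10 (p = 0.0635 for each exact permutation test), nor with every cell thinned to 1000 UMIs (-0.199 points, exact permutation p = 0.185, 104 cells). Over cells with at least 3 H2-Ab1 UMIs as denominator it was -1.32 points (exact permutation p = 0.0851). Fewer Cd209a+ cells and less Cd209a RNA per cell cannot be told apart in these shares.

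Between lines the shares did not differ beyond the spread at day 6 (exact permutation p = 0.393, 13 tumours) or day 10 (exact permutation p = 0.326, 12 tumours). At day 6 the means were 1.13% in SCC35, 0.494% in SCC31, 0.459% in SCC37, 0.438% in SCC40 and 0.285% in SCC32. The order rests on few tumours, since the SCC35 tumour of the mix library had 0.457% and those of its own library 1.53% and 1.39%. Without the mix library the day 6 test gave an exact permutation p of 0.00635, and without the tumour labelled SCC31 one of 0.0518. At day 10 the means ran from 0% in SCC31 to 0.344% in SCC32.

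**Figure D5:**
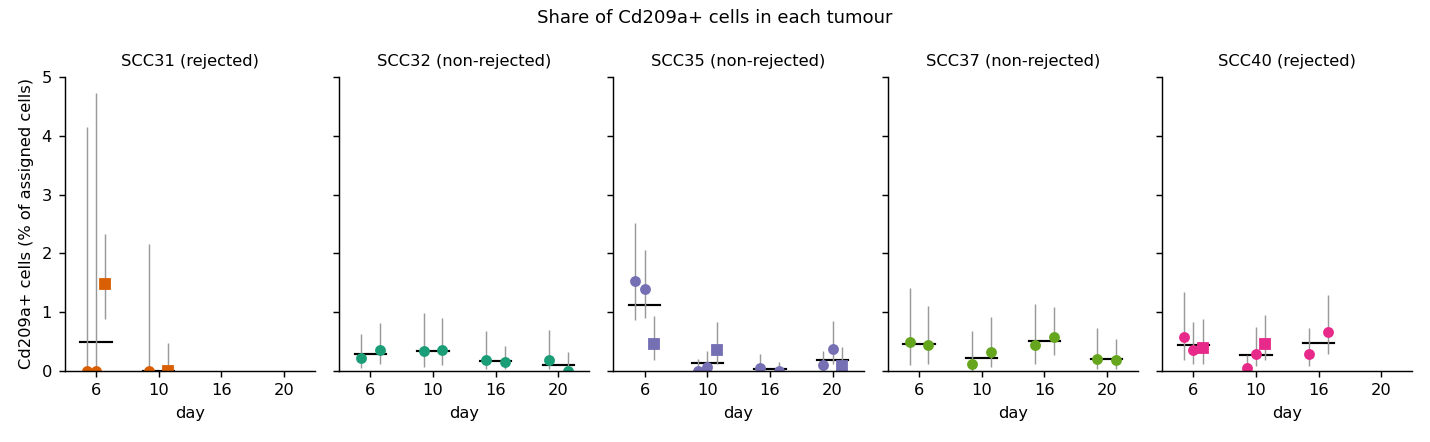
Share of Cd209a+ cells among the assigned cells of each tumour with at least 20 such cells (percent, by day and line), with exact binomial 95% intervals and means as horizontal lines. Squares are tumours of the mix library. The SCC35 tumours of day 6 lie between 0.457% and 1.53%, and those of day 20 between 0.0739% and 0.365%.

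Compared with Xcr1 Clec9a cells of the same tumours, the Cd209a+ cells had lower Cst3, Cd24a and Wdfy4. In 7 tumours with at least 5 cells of each gate, 3 of 817 genes passed and all 3 were lower (0.367%, 100 genes at an unadjusted p under 0.05). Cst3, which encodes cystatin C, an inhibitor of endosomal proteases, had a mean of 4864 ± 1901 CPM against 19840 ± 5611 CPM (SD, n = 7 tumours each), with a log2 difference of -2.14 ± 0.25 (adjusted p = 0.000728). Cd24a, a small surface glycoprotein of the Xcr1 subset, had a mean of 24.2 ± 24.7 CPM against 351 ± 205 CPM, a log2 difference of -3.70 ± 0.45 (adjusted p = 0.000737). Wdfy4, which is required for cross-presentation in the Xcr1 subset, had a mean of 47.7 ± 38.2 CPM against 421 ± 267 CPM, a log2 difference of -3.00 ± 0.45 (adjusted p = 0.00415). Cst3 and Cd24a were lower in 7 of 7 tumours, and Wdfy4 was higher in 1. The 5 tested markers of the Xcr1 subset all lay below 0, with a median of -1.40 against -0.03 for all genes (435 of 817 below 0), 1 of them past the threshold. The other gate was set on Xcr1 and Clec9a, so lower markers of that subset follow in part from the gates. The list for the second subset had 3 genes tested, with a median of 0.35. Cd24a, named above for the Xcr1 subset although it stands in this list, is the one that passed. Clec10a (1.95 ± 0.67, adjusted p = 0.253) and Mgl2 (0.35 ± 0.50, adjusted p = 0.883) did not. Of 8 chemokines none passed (median 0.91), and Ccl17 had a log2 difference of 4.25 ± 0.99 (adjusted p = 0.0890). Without SCC32 day 6 tumour 2, 24 genes passed, and without SCC35 day 6 tumour 2, 5. Without the tumour labelled SCC31 the count was 3 of 717, and without the mix library none of 675 genes passed.

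Against Ly6c2-gated monocytes, 3 tumours had at least 10 cells of each gate, and edgeR called 0 of 1744 genes (0%, 125 at an unadjusted p under 0.05, 19 called by DESeq2). With at least 5 cells per tumour, 93 genes were higher and 157 lower of 2037. Some genes with small p in the 3 tumours are named after their values were seen. Mgl2 had 142 to 825 CPM against 12 to 19.1 CPM (log2 difference 3.96 ± 0.57, adjusted p = 0.0664), and Clec10a 269 to 619 CPM against 15.3 to 63.7 CPM (3.24 ± 0.55, adjusted p = 0.0904). For these 2 genes the gates do not overlap in the 3 tumours. Sirpa, the third tested marker of the second dendritic subset, went the other way, with 8.68 to 88.4 CPM against 61.3 to 214 CPM (log2 difference -1.86 ± 0.75, adjusted p = 0.649). Chil3, a chitinase-like protein of monocytes, had 0 counts in the Cd209a+ cells of all 3 tumours and 218 in the monocytes. Of 9 MHC class II genes tested the median log2 difference was 1.44, and of 7 monocyte markers -1.07, against -0.04 for all genes. The Cd209a+ cells were chosen on H2-Ab1 and the other gate on Ly6c2. Both medians therefore follow in part from the gates and are a description. Without SCC35 day 6 tumour 2, 67 genes passed, and without the tumour labelled SCC31, which has the lowest Mgl2 of the 3, edgeR called 0 of 1522.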

How the data were processed

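The deposited files are gene and hashtag count matrices of 6 single-cell libraries (12 samples), which the authors produced using Cell Ranger 6.0.0, per the file headers, and mm10 as genome, per the submitters' processing notes. Their values are raw UMI counts, 32285 gene features per library, not normalized. An authors' table pairs the hashtags with 53 samples, 43 tumours and 10 of day 0. The protocol is 10x 5' with TotalSeq-C hashtags, per the labels' protocols. Cells were kept and assigned as the report states, so a doublet of 2 tumours is removed by the hashtag ratio, and a doublet within 1 tumour is not. No doublet caller was run.

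Counts of the Cd209a+ cells, and of each other gate, were summed per tumour, the replicate. The Ly6c2 gate needed at least 3 Ly6c2 UMIs, the C1q gate 3 C1q UMIs and the Cd3 gate 2. The sums were tested with edgeR 4.0.16 (TMM, filterByExpr, quasi-likelihood, Benjamini-Hochberg over all tested genes, adjusted p under 0.05) in R 4.3.3 with limma 3.58.1, with the genes of the rule removed first. DESeq2 1.42.0 was an alternative. CPM scales counts to a common total of UMIs over the summed cells, and levels are not divided by gene length. Shares were tested by exact permutation of tumours with at least 20 cells (scipy 1.17.1, Python 3.11.15), and figures drawn with matplotlib 3.10.9. The fits were tested on simulated data.

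The planned minimum of 10 Cd209a+ cells per tumour left 3 tumours, so days, lines and the Xcr1 Clec9a gate are reported with a minimum of 5 cells, the second one planned. The pooled later days, the same fit in monocytes and the test of their difference were added after the data were seen. Named genes are up to 5 higher and 5 lower per result with the largest change among those that passed with at least 30 counts, 10 by smallest p between lines, and members of the lists. The cells and the lists were chosen with earlier results of these data known. Motifs were searched on both strands of RefSeq promoters (GRCm38.p6). Replicate numbers did not pair the tumours. The listed genes Mx1, Clec6a and Clec7a had no row under those names. Results of some genes that passed or were listed are not reported here.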

Additional observations from a re-analysis of the deposited data

Results flagged for a closer look

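The change of Col1a1, the gene of a collagen chain, after day 6 differed between the Cd209a+ cells and the Ly6c2-gated monocytes of the same 24 tumours. The change in the Cd209a+ cells minus that in the monocytes was -5.686 on the log2 scale (adjusted p = 0.0278, edgeR, gate by period term with the tumour as block). In the Cd209a+ cells Col1a1 stood at 1180 CPM in SCC35 day 6 tumour 2, 303 CPM in the tumour labelled SCC31 and 29.5 CPM in SCC35 day 6 tumour 1, and was at 0 in the other 8 tumours of day 6. After day 6 it stood at 47.7 CPM in 1 SCC35 tumour and 27.0 CPM in another, and was at 0 in the other 11. No gene passed without SCC35 day 6 tumour 2, nor without any 1 of the tumour labelled SCC31, SCC32 day 10 tumour 2, SCC32 day 16 tumour 2, SCC35 day 20 tumour 2 and SCC37 day 10 tumour 2, and 2 passed without SCC35 day 10 tumour 3.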

How the results depend on the processing

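The share difference from day 6 to the last day kept its direction under every alternative that was run. The log2 changes of the named genes did so wherever the gene could be tested. Counts of called genes and sums of squares between lines have no direction, and many of these counts moved. The share difference from day 6 to the last day no longer passed over cells with at least 3 H2-Ab1 UMIs (-1.32 points) or with cells thinned to 1000 UMIs (-0.199), and lay between -0.440 and -0.274 with single tumours left out. The sum of squares between lines at day 6, 1.18 as reported, was 2.44 without the mix library, where it passed, and ran from 0.467 to 1.84 with single tumours left out, and at day 10 from 0.105 to 0.195.

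Counts of called genes were as follows. Without a filter on low counts they were 5 at day 10, 4 at day 16, 23 between lines, 22 against the Xcr1 Clec9a gate, 69 against the Ly6c2 gate and 10 for the difference from monocytes. With DESeq2 they were 1 at day 16, 4 between lines, 19 against the Ly6c2 gate, 36 after day 6 and 0 for the difference, and with its size factors in edgeR 28 after day 6. With at least 1 cell per tumour they were 2 at day 10, 12 at day 20, 23 between lines, 59 against the Xcr1 Clec9a gate, 908 against the Ly6c2 gate, 30 after day 6 and 3 for the difference. With at least 3 cells they were 2 at day 20, 8 between lines, 43 against the Xcr1 Clec9a gate and 593 against the Ly6c2 gate. With at least 5 cells they were 250 against the Ly6c2 gate, 0 after day 6 (105 at an unadjusted p under 0.05) and 0 for the difference. Without the mix library they were 0 between lines, 0 against the Xcr1 Clec9a gate, 3 after day 6 and 0 for the difference. With at least 2 Cd209a UMIs they were 1 against the Xcr1 Clec9a gate, 1 after day 6 and 0 for the difference. With a hashtag ratio of 4 they were 0 between lines and 27 after day 6. Without the tenth of cells with most UMIs they were 1 at day 16, 7 between lines and 42 after day 6, and without cells with a Ly6c2 or Fcgr1 UMI 6 after day 6. With single tumours left out they ran from 0 to 17 at day 10, 0 to 0 at day 16, 0 to 3 at day 20, 0 to 4 between lines, 2 to 24 against the Xcr1 Clec9a gate, 0 to 67 against the Ly6c2 gate, 7 to 32 after day 6 and 0 to 2 for the difference. The cause was not tested.

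The mean correlation of deviations was -0.0269 between tumours with the same replicate number and -0.0488 between others, and 7 of 24 tumours lay closest to their own number. With a replicate block the counts were 0 at day 10, 0 at day 16, 0 at day 20, 3 between lines and 15 after day 6. Minimums of 10 and 20 cells (20 for the Ly6c2 gate), day 10 without the mix library, days and lines with at least 2 Cd209a UMIs and day 20 without the cells with most UMIs could not be fitted, and the difference from monocytes was not run with the hashtag ratio, UMI and block settings. Most tumours held under 5 Cd209a+ cells, which limits every test of genes.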
